A study of Mus musculus with 26 samples.

Results

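Cst8, Cst12, Wfdc6a, Wfdc6b, Wfdc10, Svs5, U90926, Lbx2 and Calb1 are 9 of the 16344 genes read in a single-cell study of the female mouse fetal gonad. They were chosen because an earlier analysis of these same cells found them at the head of the largest somatic group or rising in somatic cells. Their levels by sort gate, by stage in somatic cells and by cell cluster are therefore given as descriptions, without tests. All 9 were found in the table, and all had counts.

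The mice carried the BVSC transgenes, in which Blimp1 drives mVenus and Stella drives ECFP, both reporters of germ cells. Cells of all groups came from gonads of the same strain that were pooled over several embryos at each stage from E11.5 to E18.5, trypsin-digested, sorted by fluorescence and then picked singly by mouth. RNA was copied by a modified STRT-seq method, which keeps the 3' ends of transcripts and counts unique molecular identifiers (UMIs). The 1881 cells of 26 libraries fall into 3 groups: the Negative gate, with neither reporter (529 cells over 8 stages), the BVSC gate, with both (1302 cells over 8 stages), and the BV gate (50 cells of E11.5 and E14.5).

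Cystatins are small inhibitors of cysteine proteases. Cst8 and Cst12 belong to a branch of that family known mainly from the testis and epididymis. Wfdc proteins carry the WAP four-disulfide core, a fold found in many inhibitors of serine proteases, and their genes lie beside those of the seminal vesicle secretory proteins, among them Svs5, in a region known for rapid change between species. Lbx2 encodes a homeobox transcription factor of the ladybird family, and Calb1 encodes calbindin, a cytoplasmic protein that buffers calcium. Pregranulosa cells are the supporting cells of the fetal ovary, which come to enclose the oocytes in primordial follicles.

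Of the 9 genes, 6 lie on chromosome 2 (GRCm38, GENCODE M21). Cst12 (chr2:148789361-148793546, plus strand) and Cst8 (chr2:148798785-148805595, plus strand) are 5238 bases apart with 0 genes between them. Svs5 (chr2:164332740-164334396, plus), Wfdc6a (chr2:164579519-164585447, minus), Wfdc6b (chr2:164613522-164618212, plus) and Wfdc10 (chr2:164656046-164657368, plus) lie in a second cluster. U90926 (chr5:92209893-92215408, minus), Lbx2 (chr6:83086367-83088243, plus) and Calb1 (chr4:15881264-15908064, plus) stand elsewhere. All 9 are annotated as protein-coding.

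Wfdc6a and Wfdc6b are close copies, and the sequences below show where they can be told apart. Shown are 150 coding bases of each in which they differ, spliced across exons: coding bases 108 to 257 of Wfdc6a (chr2:164580421-164583942, minus) and 141 to 290 of Wfdc6b (chr2:164614910-164617309, plus). Capitals mark the 30 positions at which the copies differ.
Wfdc6a: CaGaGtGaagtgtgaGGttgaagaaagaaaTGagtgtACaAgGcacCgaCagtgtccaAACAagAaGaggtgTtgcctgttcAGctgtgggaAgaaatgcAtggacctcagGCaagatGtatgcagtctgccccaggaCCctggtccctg
Wfdc6b: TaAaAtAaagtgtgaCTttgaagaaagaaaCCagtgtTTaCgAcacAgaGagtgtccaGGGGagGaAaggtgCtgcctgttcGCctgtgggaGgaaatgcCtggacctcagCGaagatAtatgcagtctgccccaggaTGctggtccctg
Over the whole coding sequence 354 of 448 aligned bases were identical (79.0%), but in the 3' untranslated region 306 of 307 were (99.7%). In the last 300 bases of the transcript, where this 3' method reads, 250 of the 251 windows of 50 bases in Wfdc6a and 251 of 251 in Wfdc6b also occurred in the other copy. None of the other 7 genes shared such a window with a transcript of another gene in GENCODE M21.

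The cell counts of the copies followed that near-identity. Of 477 cells with a UMI of either copy, 344 (72.1%) had equal counts of both, 129 had more of Wfdc6a and 4 had more of Wfdc6b. Over all cells Wfdc6a had 6108 UMIs and Wfdc6b 5584, which is 91.4% as many. Wfdc6a and Wfdc6b are therefore treated below as 1 measurement, and which copy was transcribed is uncertain. An exon of Wfdc6b also overlaps an exon of Wfdc8 on the opposite strand over 105 bases, and the strand setting of the counting is not given in the sources used here. Wfdc8 had 40 UMIs in all. Cst8 and Cst12, whose coding sequences were identical at 235 of 454 aligned positions (51.8%), were counted separately.

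**Figure D1:**
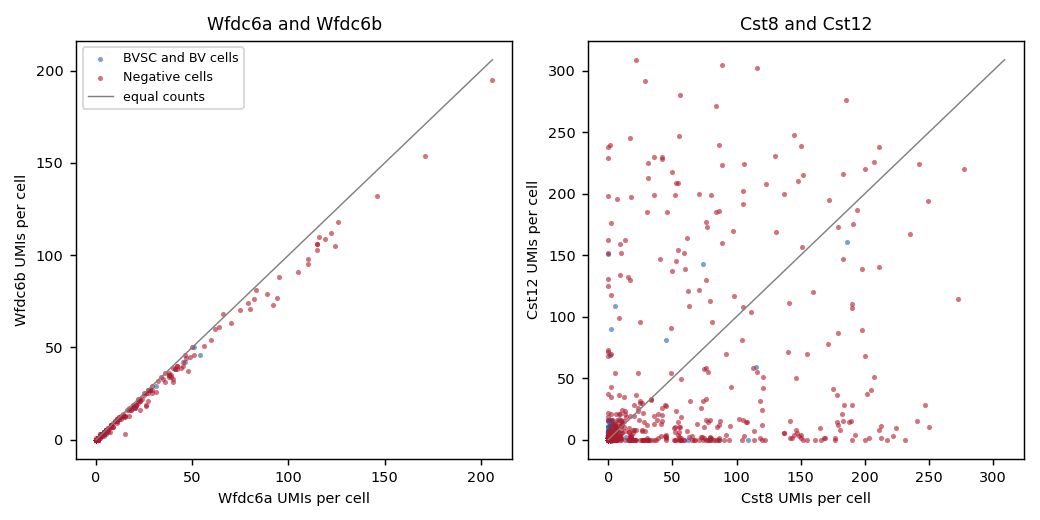
UMIs per cell of Wfdc6a against Wfdc6b (left) and of Cst8 against Cst12 (right), 1 point per cell, Negative cells in red, BVSC and BV cells in blue, with the line of equal counts. The Wfdc6 copies lie on or just under the line (Pearson r 0.998 over 1881 cells), whereas Cst8 and Cst12 scatter widely and many cells hold counts of 1 gene only.

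Motifs were looked for in the RefSeq promoter windows (GRCm38.p6, 250 bases before to 50 after each start), which were there for 7 of the 9 genes. The genes were chosen together for their levels in somatic cells. For that reason 6 short motifs of factor families known from the gonad were searched on both strands. Each of 3 motifs was found in a single gene. The stretches of 30 bases below hold those matches in capitals: AAGGTCA in Cst8 (NR5A1 type, chr2:148798780-148798809, plus), CAGCTG in Cst12 (E-box, chr2:148789327-148789356, plus) and AGATAA in Wfdc10 (GATA type, on the opposite strand, chr2:164655829-164655858).
Cst8: tgcctgggcttcAAGGTCAggacttacata
Cst12: catcaccatctgCAGCTGcgccacccctcc
Wfdc10: tccaggtcagctTTATCTgcaaacacttta
Of all 32851 windows 4.72% held AAGGTCA, 16.3% CAGCTG and 11.2% AGATAA, so each motif is common, and no motif was shared by the genes. ATCAAAG (TCF/LEF type), TGTTTAC (forkhead type) and GCGGGGGCG (WT1 type), held by 3.73%, 3.65% and 2.91% of windows, were in none of the windows of the 7 genes. A match describes the letters only.

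Counts were summed over the cells of a library, stage and gate into pools of at least 5 cells: 17 Negative pools (8 to 48 cells, 700825 to 13141802 UMIs) and 18 BVSC pools (26 to 96 cells, 4743602 to 27498626 UMIs). Levels are in CPM, UMIs of a gene scaled to a common deposited UMI total per pool. Each stage has 2 pools per gate, except 3 Negative pools at E11.5 and E14.5, 1 Negative pool at E13.5 and 4 BVSC pools at E14.5. By summed markers 31 Negative cells (5.86%) had more germ cell than early gonadal somatic signal, and 15 BVSC cells (1.15%) the reverse. These 46 cells go against their gate, and results that rest on them are given with and without them. No cell name occurred more than once. In a pool, fewer cells of a type and less RNA per cell cannot be told apart.

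The pregranulosa label was checked against 20 markers, of which 13 were in the rows read. Their summed level was 995 to 2620 CPM in Negative pools and 44.5 to 441 CPM in BVSC pools, and Foxl2 was not analysed here. Stroma markers (11 of 14 in the rows read) summed to 322 to 1700 CPM in Negative pools, so that gate also held other somatic cells. Negative pools had 0 to 603 CPM of macrophage and immune markers and 9.97 to 1000.2 CPM of erythroid markers. The label thus covers part of the Negative gate, as the cell clusters below show.

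All 9 genes had a higher mean in Negative than in BVSC pools. Cst8 was at 257 ± 115 CPM (SD, n = 17) in Negative pools, with a lowest, median and highest pool of 99.99, 241 and 526 CPM, and at 6.64 ± 7.75 CPM (n = 18) in BVSC pools, with 1.39, 5.10 and 34.8 CPM. Cst8 was the only 1 of the 9 whose Negative pools all lay above its BVSC pools, where 3.19% of all genes tested between gates had such a separation. Since the genes were picked for somatic signal, nothing is read from that share.

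Cst12 had 213 ± 162 CPM in Negative pools (lowest 0, median 212, highest 499 CPM) and 7.47 ± 8.40 CPM in BVSC pools (0, 3.64 and 23.5 CPM). The overlap came from Negative pools of E11.5 and E12.5 at 0, 0.346, 4.10 and 17.8 CPM. Wfdc6a had 46.2 ± 34.6 CPM in Negative pools and 2.27 ± 3.09 CPM in BVSC pools, and Wfdc6b had 42.0 ± 31.6 and 2.15 ± 2.92 CPM.

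Wfdc10 had 70.0 ± 53.0 CPM in Negative pools and 5.55 ± 9.47 CPM in BVSC pools. Svs5, a seminal vesicle secretory protein gene, had 48.4 ± 57.9 and 4.39 ± 6.41 CPM, and U90926 had 37.6 ± 37.3 and 1.43 ± 1.49 CPM. For these genes the pools of a gate varied widely, and in the BVSC gate the SD was above the mean. Lbx2 had 157 ± 103 and 4.91 ± 6.71 CPM, and Calb1 had 122 ± 89.5 and 5.03 ± 5.48 CPM.

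As a ratio of means, Negative over BVSC, these levels ran from 11.02 for Svs5 to 38.7 for Cst8. Without the 46 cells against their gate the ratios ran from 13.1 for Wfdc10 and Svs5 to 58.5 for Cst8, and that of Calb1 went from 24.3 to 36.8. The 15 BVSC cells against their gate held 33.1% of the Cst8 UMIs of the BVSC gate, 40.4% of those of U90926 and 7.06% of those of Svs5.

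**Figure D2:**
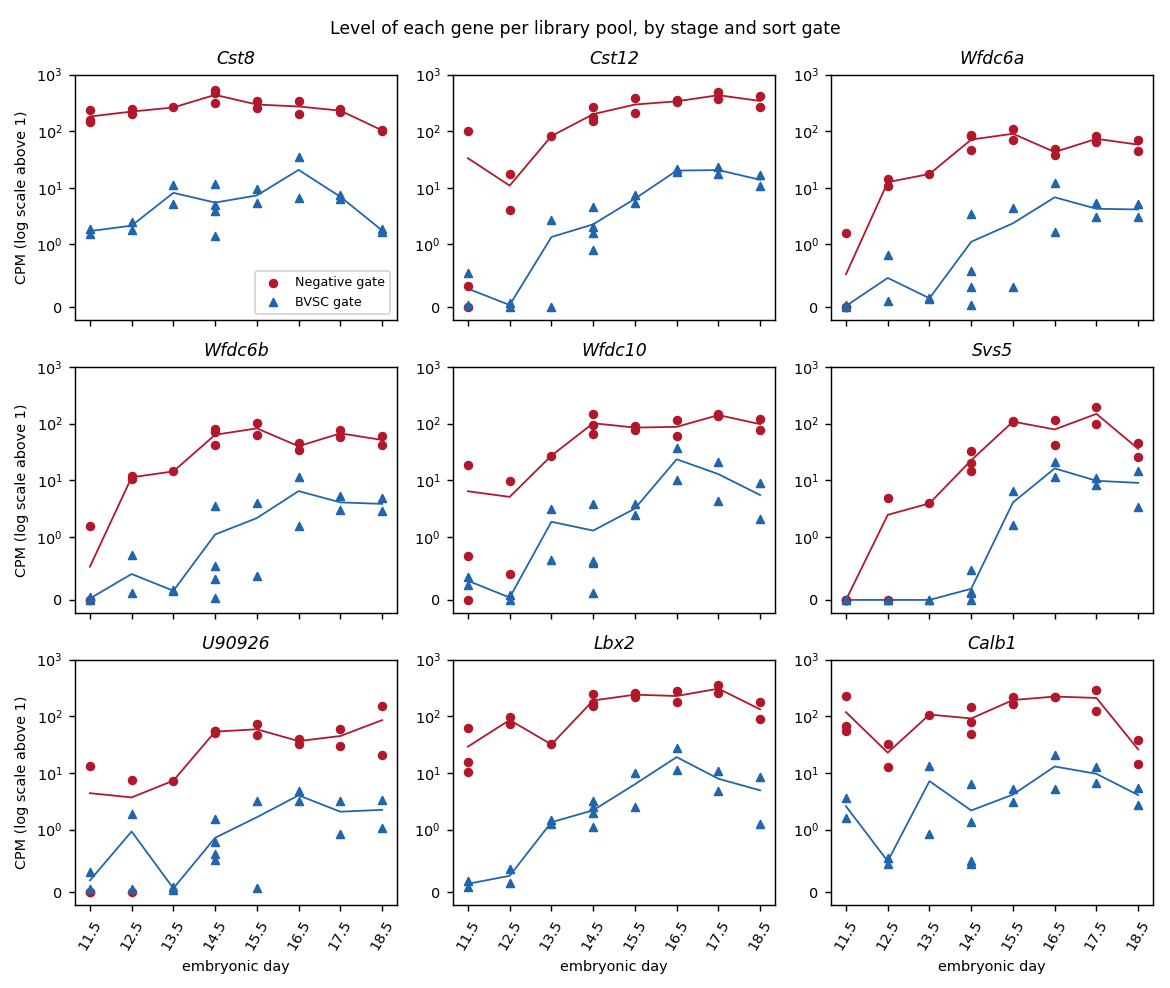
CPM of each gene per pool against embryonic day, on an axis that is logarithmic above 1, with Negative pools as red circles, BVSC pools as blue triangles and lines through the stage means. Cst8 is high in the Negative gate from E11.5 on, 6 genes come up between E11.5 and E14.5, and in the BVSC gate most genes are highest at E16.5 or E17.5.

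The genes differed in when they were present in the Negative gate. Cst8 was there from the start: the E11.5 pools had 241, 158 and 145 CPM, the E12.5 pools 244 and 200.4 CPM and the E13.5 pool 262 CPM. It was highest at E14.5, with 526, 321 and 467 CPM, and fell away to 256 and 335 CPM at E15.5, 341 and 205 CPM at E16.5, 219 and 241 CPM at E17.5 and 99.99 and 107 CPM at E18.5. The E18.5 pools were below every other Negative pool, but without the cells against their gate they were at 143 and 198 CPM, the second of them above E11.5 pools of 161 and 145 CPM.

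Cst12, its neighbour on the chromosome, varied between libraries at first, at 99.6, 0 and 0.346 CPM at E11.5, 17.8 and 4.10 CPM at E12.5 and 82.0 CPM at E13.5. It then stood at 154, 178 and 268 CPM at E14.5, 212 and 379 CPM at E15.5, 353 and 322 CPM at E16.5, 499 and 364 CPM at E17.5 and 269 and 415 CPM at E18.5. The highest stage mean of Cst12 was 432 CPM at E17.5, and that of Cst8 was 438 CPM at E14.5.

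Svs5 came up late. No UMI of Svs5 was found in the 3 pools of E11.5, and E12.5 had 0 and 4.92 CPM and E13.5 had 3.92 CPM. The E14.5 pools had 33.5, 19.9 and 14.6 CPM, those of E15.5 had 107 and 111 CPM, of E16.5 42.4 and 116 CPM, of E17.5 97.2 and 201 CPM and of E18.5 25.4 and 46.5 CPM. Against the 3 counts that 0 UMIs at E11.5 allow over the group, the E18.5 level was at least 66.4-fold higher, counting error only.

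Wfdc6a was at 1.58, 0 and 0 CPM at E11.5, at 14.52 and 10.7 CPM at E12.5 and at 17.6 CPM at E13.5, then at 82.7, 46.5 and 84.2 CPM at E14.5. Its highest stage mean was 90.1 CPM at E15.5, and that of Wfdc6b was 82.6 CPM at the same stage. From 3 UMIs at E11.5 to 353 at E18.5 the ratio of Wfdc6a levels was 107, with a 95% counting interval of 36.1 to 519.

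Wfdc10 went from 0, 18.5 and 0.691 CPM at E11.5 to 93.3, 65.3 and 147 CPM at E14.5 and a stage mean of 142 CPM at E17.5. U90926 went from 0, 0 and 13.1 CPM at E11.5 to 55.6, 50.8 and 54.0 CPM at E14.5, where its 3 pools lay close together. At E18.5 its pools were far apart, at 20.3 and 150.2 CPM.

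Lbx2, the homeobox gene, was at 61.1, 15.7 and 10.4 CPM at E11.5, at 72.6 and 98.7 CPM at E12.5 and at 248, 154 and 168 CPM at E14.5, with a highest stage mean of 307 CPM at E17.5. Calb1 had no such course: its E11.5 pools of 230.3, 68.5 and 54.3 CPM overlapped those of E14.5, at 147, 79.4 and 47.8 CPM. Its highest stage mean was that of E16.5, with pools of 222 and 223 CPM, but its highest pool was 1 of E17.5 at 296 CPM, beside another at 124 CPM. Calb1 was at 14.2 and 37.6 CPM at E18.5.

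For Cst12, Wfdc6a, Wfdc6b, Wfdc10, Svs5 and U90926 (6 of 9) the 11 pools of E14.5 to E18.5 all lay above the 6 pools of E11.5 to E13.5. Of all genes tested over these stages 0.704% did so, and since the genes were chosen on these cells nothing is read from that share. For Cst12 the highest early pool had 99.6 CPM and the lowest later one 154 CPM, for U90926 13.1 and 20.3 CPM and for Svs5 4.92 and 14.6 CPM. Without the cells against their gate only Cst12, Svs5 and U90926 kept it. Wfdc10 went from 119.7 to 0.596 CPM and Wfdc6a from 70.6 to 11.3 CPM in E18.5 library 26, whose pool then had 13 of its 22 cells. In that library most of the Wfdc10 and Wfdc6a signal thus lay in 9 cells with germ cell markers.

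Cells of the later stages held more of these genes at once. With Wfdc6a and Wfdc6b taken as 1, a Negative cell had UMIs of a median of 1 of 8 at E11.5, 2 at E12.5 and E13.5, 5 at E14.5, 7 at E15.5, 6.5 at E16.5, 5 at E17.5 and 3 at E18.5. The median depth of these cells was 98990.5 UMIs at E11.5, 218078 at E15.5 and 121403 at E18.5, and the part of depth in this order was not tested. All 8 were present in 61 Negative cells (11.53%) and in 18 BVSC cells (1.38%).

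Thinned to 50000 UMIs per cell, with 60 Negative and 62 BVSC cells of lower depth left out, the share of cells with a UMI of Cst8 was 75.7% of 469 Negative cells (95% Clopper-Pearson interval 71.5 to 79.5%) and 16.1% of 1240 BVSC cells. Without thinning these shares were 80.9% and 43.0%. For Cst12 the thinned shares were 64.8% and 15.6%, for Lbx2 62.9% and 9.27%, for Calb1 46.9% and 12.0%, for Wfdc10 36.0% and 10.3%, for Wfdc6a 36.0% and 5.24%, for U90926 25.8% and 3.31% and for Svs5 22.2% and 8.39%. The BVSC shares are set beside the Negative ones as those of cells sorted as germ cells, but they are no plain background, since that gate held 15 cells with more somatic than germ cell signal. Median depths before thinning were 184584 UMIs in those Negative cells and 259097.5 in those BVSC cells.

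Among Negative cells, levels of the genes were only loosely tied from cell to cell. Over 529 cells Pearson's r between any 2 of the genes ran from 0.17 (Svs5 and U90926) to 0.42 (Cst12 and Wfdc10), apart from 0.99 for the Wfdc6 copies. The cells share libraries, stage and depth, so these values are descriptions.

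To see which somatic cells held the genes, the 529 Negative cells were clustered without them. Genes of the cystatin list and of the Wfdc and seminal vesicle locus list, described below, were also left out, 48 genes in all. Other chromosome neighbours and the protease and calcium-binding lists were not left out. The clustering gave 11 clusters numbered by size. Cluster 1, with 101 cells of which 74 were of E14.5, was led by Gm15543, Nmnat2 and Bmp2 and had raised Rspo1, Bmp2 and Lgr5, so it is called pregranulosa-like. Cluster 2 (79 cells, 74 of them of E15.5 to E18.5) was led by Fabp7 and Spata21, and cluster 6 (46 cells, E14.5 to E16.5) by interferon-induced genes such as Ifi44 and Oas1a. Both stay unnamed for want of 3 supporting markers of their own, although their summed pregranulosa markers (1956 and 2161 CPM) were close to that of cluster 1 (2167 CPM). In cluster 2 the immune markers C1qa, C1qb, C1qc and Lyz2 were also raised, and the largest library gave 50% of the cells of cluster 6.

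These 3 clusters held 226 of the 529 cells (42.7%) but 73.1% of the Cst8 UMIs of the gate and 90.5% of those of U90926, with the other genes between. They were the 3 highest clusters for 8 of the 9 genes, the exception being Svs5, for which cluster 7 (45 cells, led by Upk3b and Tspan8) at 55.6 CPM exceeded cluster 1 at 40.6 CPM. Cst12 was nearly as high in cluster 7, at 281 CPM, as in cluster 1, at 291 CPM. In cluster 7 Cst8 was at 231 CPM, Calb1 at 98.0 CPM and Lbx2 at 97.6 CPM. Leaving out the 5 cells against their gate in these clusters moved the shares to 73.3% for Cst8 and 89.8% for U90926.

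Cst8 was highest in cluster 1, at 564 CPM, with 415 CPM in cluster 2 and 390 CPM in cluster 6. Cluster 3, an early group (53 cells, 50 of E11.5 to E13.5) with raised Wnt4 and Nr0b1 that is left unnamed here, had 314 CPM of Cst8. The other genes were low in that early group: cluster 3 had 44.2 CPM of Cst12, 16.6 of Wfdc6a, 4.79 of Svs5 and 3.48 of U90926. Cst8 was thus the 1 gene of the set whose level in cluster 3 was over 0.5 of that in cluster 1.

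Cst12 was highest in cluster 6 and cluster 2, at 526 and 517 CPM, against 291 CPM in cluster 1. Wfdc10 (232 CPM), Svs5 (167 CPM), U90926 (119.7 CPM), Lbx2 (432 CPM) and Wfdc6a (125 CPM) were highest in cluster 2, and Calb1 in cluster 6 (371 CPM). In the 3 stroma-like clusters, numbers 8, 9 and 10, Cst8 was at 31.6, 31.5 and 17.1 CPM and U90926 at 0.191, 2.31 and 2.95 CPM, but Lbx2 reached 126 CPM in cluster 10 and Calb1 109.97 CPM in cluster 8. These cluster levels are means of the CPM of single cells. Over the 3 library pools of cluster 8 Calb1 was at 42.0 ± 32.8 CPM, and 35.1% of the cluster's cells had a UMI of Calb1. Cluster 5 (48 cells, led by Pax8 and Zg16) stood apart in having 105 CPM of Wfdc10 with 10.9 CPM of Wfdc6a. Cluster 11 had raised immune markers (1778 CPM summed) and also raised germ cell markers, Mael, Sycp3, Tex101 and Kit (germ identity markers 1156 CPM summed). All 17 of its cells went against their gate by markers, and Cst8 was at 12.7 CPM there.

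**Figure D3:**
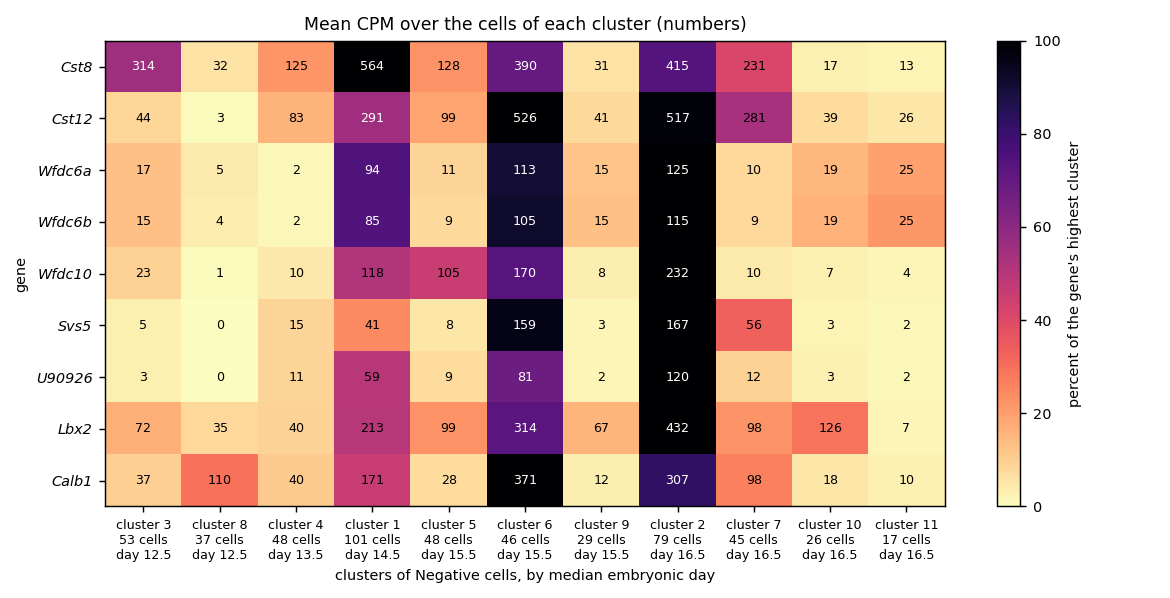
Mean CPM of each gene over the cells of each cluster of Negative cells (numbers in the squares), coloured by the percent of the gene's highest cluster, with clusters in order of their median embryonic day. Clusters 6 and 2 are dark for nearly all genes. Cluster 1 is darkest for Cst8 and paler for others, among them Cst12, Svs5, Lbx2 and Calb1. Cluster 3 is of a middle tone for Cst8 and pale for the other genes.

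Within cluster 2 the 2 cystatins ran in opposite orders over the stages. Cst8 was at 844 CPM in the 5 cells of E14.5, where Cst12 was at 55.7 CPM. After that Cst8 was at 535 CPM at E15.5 (16 cells), 455 CPM at E16.5 (23 cells), 254 CPM at E17.5 (22 cells) and 154 CPM at E18.5 (13 cells), and Cst12 at 412, 431, 650.2 and 790 CPM. Without the 5 cells against their gate, all of E18.5, that stage had 245 CPM of Cst8 and 728 CPM of Cst12. The E15.5 and E16.5 cells of cluster 2 came from 1 library each, so these values have no replicate check.

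The genes were not chosen on changes between stages within the BVSC gate, so these were tested. The choice did use somatic against germ cell levels, and this gate held 15 cells with more somatic signal. The test is therefore not fully independent of the choice. Between E18.5 and E11.5, edgeR's quasi-likelihood test with Benjamini-Hochberg adjustment called 5 of the 9 genes, all 9 of which passed the filter on low counts, and all 5 were higher: Cst12, Lbx2, Svs5, Wfdc6a and Wfdc6b, of which the last pair is 1 measurement. Of all 10246 genes tested 15% were called higher, 12.8% lower and 27.8% in either direction, and the median log2 change of all genes was 0.15. At E11.5 Svs5 had 0 UMIs, Wfdc6a and Wfdc6b 1 each, Lbx2 5 and Cst12 10. Genes so near 0 passed the filter on low counts through later stages and could hardly be called lower. Nothing is therefore read from the shared direction of these 5 genes or from their number beside those shares. Libraries serve as replicates, and the labels do not say whether they came from separate animals, so the p-values here stand against library-to-library spread only, part of which may be technical. The levels were low throughout, at or under 16.97 CPM at both stages.

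Svs5 had 0 UMIs in both BVSC pools of E11.5 and was at 14.7 and 3.37 CPM at E18.5 (316 UMIs). That is at least 160-fold higher against 3 counts over the E11.5 pools (adjusted p = 0.0013). It was also higher at E18.5 than in the E14.5 pools of 0.469, 0.130, 0.109 and 0 CPM, with a log2 change of 5.74 ± 1.15 (SE, adjusted p = 0.0019). Both differences exceeded the spread between libraries, and Svs5 was the 1 gene of the set called in that second contrast, in which 18.9% of genes were called, 9.67% higher and 9.24% lower. Leaving out any 1 library did not end the call of Svs5 against E11.5.

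Cst12 was at 0.550 and 0.0456 CPM at E11.5 and at 16.97 and 10.8 CPM at E18.5, a log2 change of 5.34 ± 1.45 (adjusted p = 0.0088). Its pools did not overlap between these stages, nor did those of Lbx2, Wfdc6a, Wfdc6b and Svs5. The same held for Wfdc10 and U90926, which were not called. With 2 pools at each of these stages nothing is read from that separation. The call was lost without library 7 of E11.5. Lbx2 was at 0.183 and 0.0912 CPM at E11.5 and at 8.56 and 1.26 CPM at E18.5, a log2 change of 4.83 ± 1.21 (adjusted p = 0.0052), lost without library 6 or 7.

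Wfdc6a had 1 UMI at E11.5 and 87 at E18.5 (3.03 and 5.27 CPM), a ratio of 132 with a counting interval of 23.1 to 5282 (adjusted p = 0.024), and Wfdc6b had 1 and 81 UMIs. The call of Wfdc6a was lost without library 1 or 7, and that of Wfdc6b also without library 26. Without library 7 Svs5 alone was called, and without library 1 there were 3 calls.

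The other 4 genes were not called between E18.5 and E11.5. Wfdc10 had 0.245 and 0.365 CPM at E11.5 and 8.90 and 2.11 CPM at E18.5, a log2 change of 3.83 ± 1.45 (adjusted p = 0.054). It was called by DESeq2 (adjusted p = 0.012) and without the cells against their gate (adjusted p = 0.04997). U90926 had a log2 change of 3.26 ± 1.81 (adjusted p = 0.18), Cst8 of -0.20 ± 0.96 (adjusted p = 0.91) and Calb1 of 0.42 ± 1.22 (adjusted p = 0.84), which ran from -0.029 to 0.948 as each library was left out. For Cst8 the pools of 1.90 and 1.55 CPM at E11.5 and of 1.86 and 1.69 CPM at E18.5 overlapped.

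At E14.5 against E11.5, 13.9% of genes were called (8.35% higher, 5.58% lower) and 1 of the 9, Lbx2, with E14.5 pools of 2.46, 1.11, 1.93 and 3.24 CPM and a log2 change of 3.76 ± 1.11 (adjusted p = 0.028). Without the cells against their gate its adjusted p was 0.12, and the call was also lost without library 1, 7, 14 or 20. DESeq2 called 4 of the 9 in that contrast, Lbx2, Cst12, Wfdc6a and Wfdc6b.

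The BVSC levels of the genes followed those of pregranulosa markers only in part. The summed level of these markers was 90.2 and 120 CPM in the E11.5 pools, 262 and 441 CPM at E16.5 and 44.5 and 99.1 CPM at E18.5. The E16.5 pool with 441 CPM, library 20, also had the highest BVSC level of Cst8 (34.8 CPM), Lbx2 (27.0 CPM), Wfdc10 (36.9 CPM), Calb1 (20.7 CPM) and Wfdc6a (12.0 CPM). At E18.5 these markers were no higher than at E11.5, but stroma markers (11 of 14 in the rows read) went from 6.72 and 11.1 CPM at E11.5 to 47.0 and 52.5 CPM at E18.5, and were at 135 CPM in library 20. Of the 11 stroma markers 1 or 2 were at 0 in the E11.5 pools and 0 or 2 in the E18.5 pools. In addition, 1 E18.5 pool had 559 CPM of erythroid and 517 CPM of immune markers. The part of other cells in these levels was not tested.

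BVSC UMIs of the genes sat in few cells. The top 13 cells (1% of the gate) held 40.3% of the Svs5 UMIs and 61.3% of those of Wfdc10, with the other genes between, whereas in the Negative gate the top 5 cells (1%) held 4.61% to 19.9%. BVSC cells had UMIs of a median of 1 of 8 genes up to E15.5, 2 at E16.5, 5 at E17.5 and 3 at E18.5. At E17.5, 59.3% of thinned BVSC cells had a UMI of Cst12.

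**Figure D4:**
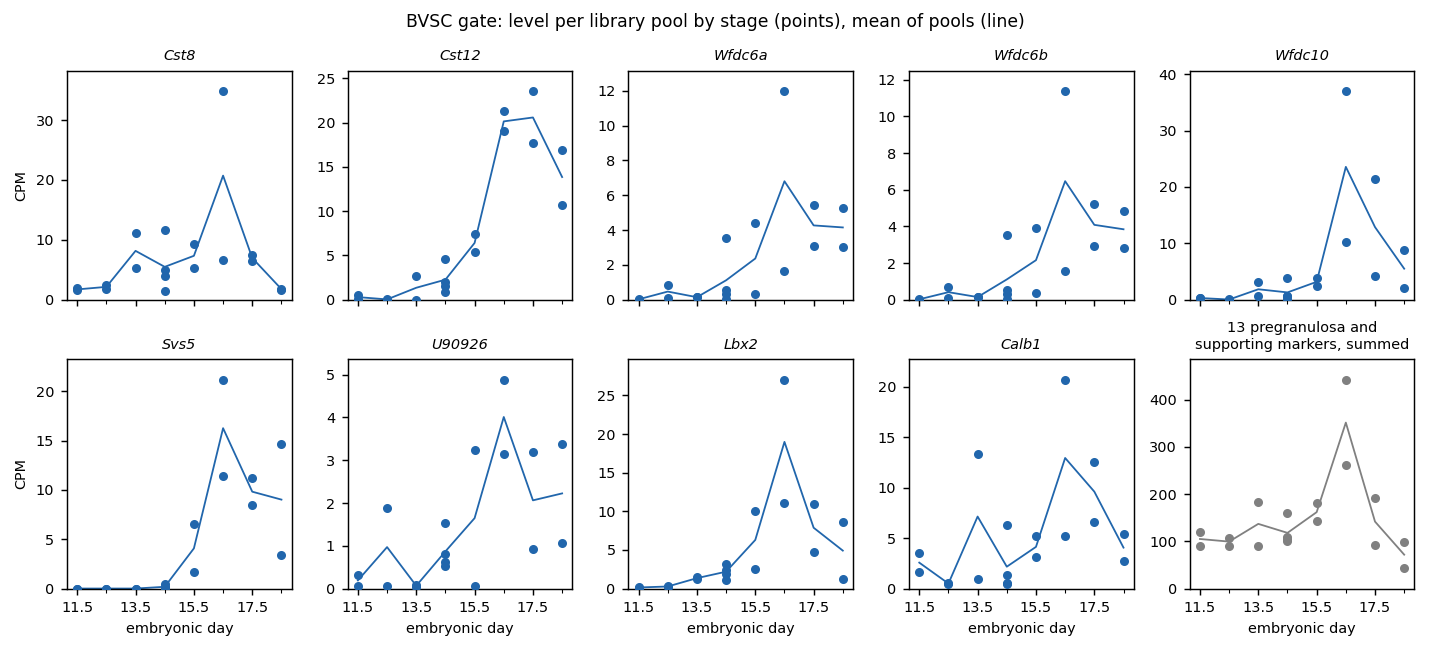
CPM of each gene and, in grey, of the 13 summed pregranulosa and supporting markers per BVSC pool against embryonic day, with lines through the stage means. Most panels peak at E16.5, where library 20 also has the highest marker sum of 441 CPM, and Svs5 is at 0 CPM up to E13.5.

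The E14.5 gates and cell labels were compared as well. Between 2 BV pools and 4 BVSC pools of E14.5, edgeR called 0 of 7855 genes (0%), with 630 at an unadjusted p under 0.05, while DESeq2 called 37. Of the 8 genes of the set tested, none was called (adjusted p 0.75 to 0.96). Cst8, for example, had 17.6 and 0.955 CPM in BV pools and 1.39 to 11.6 CPM in BVSC pools, so the range of the BV pools spanned that of the BVSC pools.

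Negative cells of E14.5 bear a letter C, D or P in their names, whose meaning the sources used here do not give. The letters share the same 3 libraries, with 1 pool per letter in each, and the fit took the pools as independent. In that fit 1 of 6552 genes (0.0153%) was called for D against C, 0 (0%) for P against C and 1 (0.0153%) for P against D, with 221, 177 and 194 at an unadjusted p under 0.05. None of the 9 genes was among the calls. DESeq2 called 5 genes for P against C. The widest difference among the 9 was that of Wfdc10, at 71.5, 128 and 171 CPM in C, 148, 52.6 and 234 CPM in D and 58.4, 7.40 and 60.4 CPM in P. Its log2 change of -1.79 ± 0.60 for P against D had an adjusted p of 0.9994, and the D and P pools overlapped, although P was below both C and D within each of the 3 libraries. With library as a block, an alternative added after seeing the data, the log2 change was -1.86 ± 0.47 (adjusted p = 0.60). With no filter on low counts, where the fit held more genes, its adjusted p without the block was 0.035.

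Genes of the same families and loci, from lists chosen with earlier results known, were tested between gates and stages. Between gates 64.5% of 9805 genes were called, 25.8% higher in the Negative gate and 38.7% lower, with a median log2 difference of -0.34 (-0.13 by DESeq2's size factors). Of 10 cystatin genes in the rows read besides Cst8 and Cst12, 8 were tested. All 8 were higher in the Negative gate, with a median log2 difference of 5.07. Genes nearly absent from 1 gate could pass the filter on low counts only through the other, which fixes their direction. Cst11, Cst13 and 9230104L09Rik were such genes, at means of 0.0219, 0.102 and 0.0282 CPM in BVSC pools. Nothing is therefore read from the shared direction of the 8. Cst9, known from the testis, had 51.3 ± 56.6 CPM against 1.85 ± 3.24 CPM (log2 difference 4.76 ± 0.68, adjusted p = 2.4e-07), and Cstb, a broadly expressed cytoplasmic inhibitor, had 371 ± 72.4 against 124 ± 43.9 CPM (1.52 ± 0.18).

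The Wfdc and seminal vesicle locus was mixed, with 5 of 19 tested genes higher, 5 lower and 9 not called (median -1.19). Svs6, beside Svs5, had 19.7 ± 23.7 CPM against 0.479 ± 1.43 CPM (log2 difference 6.46 ± 0.80, adjusted p = 1.2e-07), and Eppin, an epididymal protease inhibitor gene beside Wfdc6a, 2.72 ± 4.40 against 0.0592 ± 0.131 CPM. Eppin was lost with library as a block (adjusted p = 0.085). Wfdc15a went the other way, at 1.92 ± 2.97 against 29.4 ± 31.3 CPM (-4.62 ± 0.54, adjusted p = 4.7e-09), as did Spint5. Genes of the locus thus did not share 1 direction.

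Neighbours on the chromosome differed likewise. Of the tested neighbours that are not in the set, 7 of 8 near Cst12 and 6 of 7 near Cst8 were higher in the Negative gate, against 0 of 6 near Lbx2, where Tlx2 and Dqx1 were lower. Of all genes 25.8% were higher and 38.7% lower. Cst12 and Cst8 are adjacent, so their neighbours are nearly the same genes, most of them from the cystatin list above. These counts are not separate results and share the limit set by the filter on low counts. Near Calb1 only Decr1, a mitochondrial fatty acid enzyme gene, was higher (120.1 ± 28.4 against 12.503 ± 7.38 CPM, log2 difference 3.29 ± 0.19) and 4 of 8 were lower. Near U90926, Naaa, which encodes a lipid amidase, was at 143 ± 60.4 against 7.03 ± 4.23 CPM (4.25 ± 0.22). In the Negative gate Naaa went from a mean of 239 CPM at E11.5 to 72.8 CPM at E18.5 (log2 change -1.81 ± 0.34, adjusted p = 0.0022), while U90926 was lower at E11.5 than at E18.5.

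**Figure D5:**
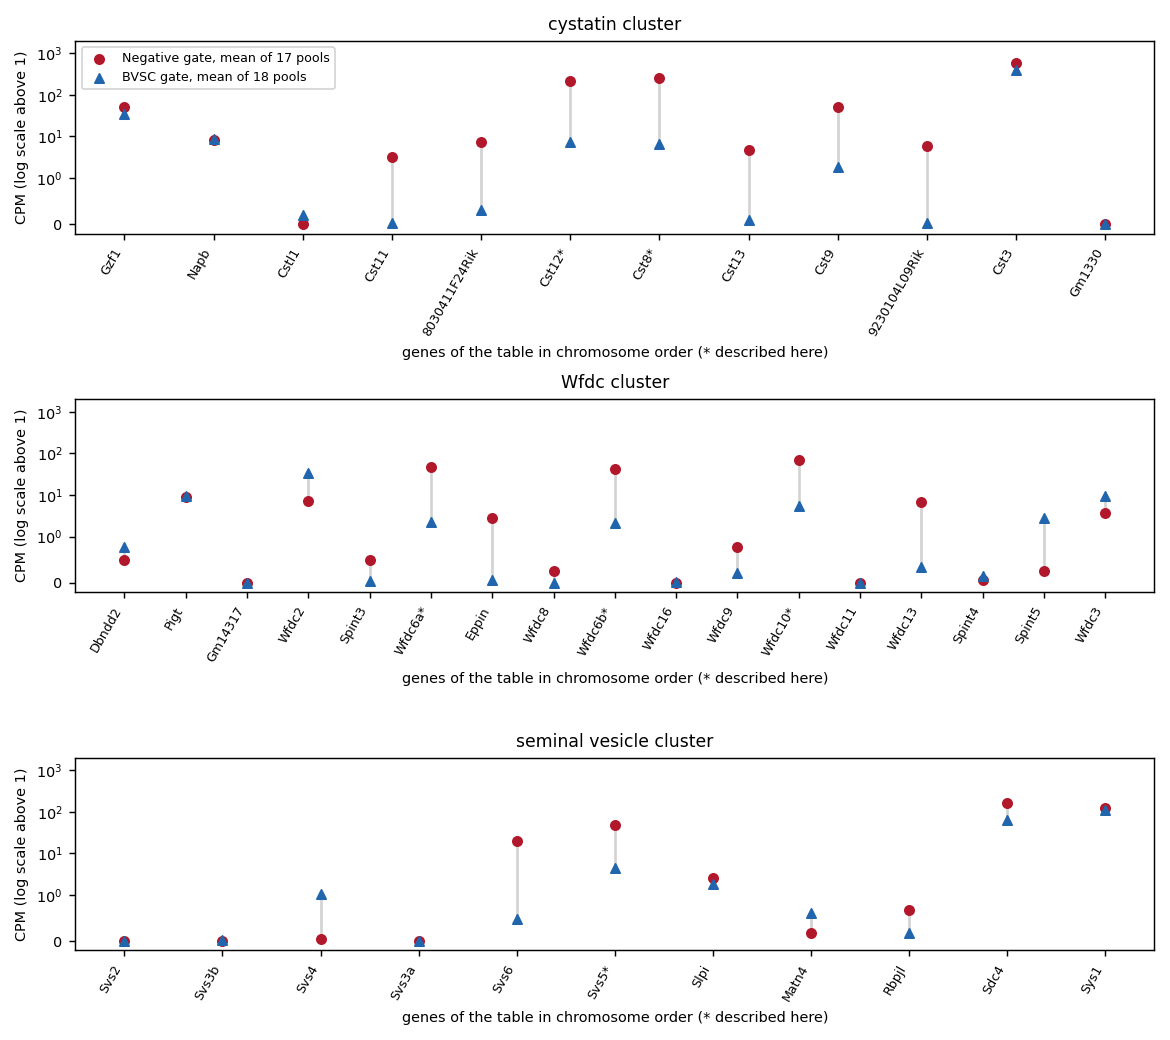
Mean CPM of the genes of the table in chromosome order in the cystatin, Wfdc and seminal vesicle clusters, Negative gate (red circles, 17 pools) and BVSC gate (blue triangles, 18 pools), on an axis logarithmic above 1, with the genes described here starred. In the cystatin cluster Cst12, Cst8, Cst13 and Cst9 all stand above their BVSC level, whereas in the Wfdc cluster Wfdc2 and Spint5 stand below it.

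Between E11.5 and E18.5 in the Negative gate 3.94% of 8955 genes were called, 2.48% higher and 1.46% lower. DESeq2 called 379 higher and 346 lower against 222 and 131, so the split between directions depended on the tool. Of 8 cystatin genes Cst7 alone was called: it was at 0 CPM in the E11.5 pools and at 76.2 CPM at E18.5 (adjusted p = 0.0062). It was among the leading genes of cluster 11, where immune and germ cell markers were raised. Cst7 was not called by DESeq2 or without the cells against their gate. Of 15 tested genes of the Wfdc and seminal vesicle locus 2 rose: Sdc4, a cell surface proteoglycan gene, from 58.6 to 244 CPM (log2 change 1.93 ± 0.31, adjusted p = 0.00039), and Svs6, from 0 CPM in all E11.5 pools to 14.4 CPM (adjusted p = 0.0018). Svs6 thus followed Svs5, its neighbour, which had 0 UMIs at E11.5 too.

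Of genes for proteases and their inhibitors, the partners that cystatins and Wfdc proteins act on or resemble, 11 of 17 tested were higher in the Negative gate, 3 lower and 3 not called, beside 25.8% higher and 38.7% lower of all genes. Among them were Timp3 (5.40 ± 0.46) and Timp1 (3.32 ± 0.34), inhibitors of metalloproteinases, Plat (5.12 ± 0.35), the tissue plasminogen activator, and Serpinh1 (3.57 ± 0.23), a collagen chaperone, as log2 differences. With stage 4 of 18 rose in the Negative gate, Elane, Ctsc, Ctso and Ctsz, and none was called lower. Elane, at 0 CPM in the E11.5 pools, and Ctsc, a protease activator of immune cells, were lost without the cells against their gate, Ctso with pools of at least 10 cells and Ctsz with upper-quartile scaling. Ctsc was also lost without library 6, Ctso without library 1, 2, 6 or 26, and Ctsz without library 1, 6, 7, 13, 15, 17, 19 or 26.

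Of calcium-binding genes other than Calb1, 6 of 15 tested were higher in the Negative gate and 4 lower, beside 25.8% and 38.7% of all genes. S100a10 (3.81 ± 0.22), S100a1 (3.98 ± 0.26), S100a11 (2.71 ± 0.25) and Necab3 (2.91 ± 0.38) led by adjusted p, as log2 differences. Between E11.5 and E18.5 Necab3 (3.37 ± 0.77, adjusted p = 0.011) and S100a1 (1.49 ± 0.40, adjusted p = 0.029) rose in the Negative gate, 2 of 13 tested, whereas Calb1 stood lower at E18.5 than at E11.5 in its stage means.

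In the BVSC gate, where 15% of all genes were called higher and 12.8% lower between E11.5 and E18.5, 0 of 7 cystatin genes rose and Cstb fell (log2 change -1.48 ± 0.42, adjusted p = 0.011). Of 15 genes of the Wfdc and seminal vesicle locus Wfdc15a rose (3.50 ± 0.59, adjusted p = 0.00015), and Wfdc2 (-5.72 ± 0.91), Sdc4 (-3.41 ± 0.66) and Slpi fell. Of 18 protease and inhibitor genes 3 rose and 3 fell, with Spint1 (7.05 ± 1.22) and Htra1 (4.03 ± 1.03) among the first and Serpinh1 (-3.86 ± 0.49) and Timp1 (-4.03 ± 0.74) among the second. Of 15 calcium-binding genes 2 rose and 5 fell, among these S100a11 (-3.58 ± 0.36), Calm3 (-2.34 ± 0.28), S100a6 (-4.41 ± 0.69) and S100a13 (-4.35 ± 0.70).

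The genes most like each member were found by Pearson's r of log2(CPM + 1) over the 17 Negative pools, among 7865 genes with a mean of at least 1 CPM. Among them were Ptpro (0.83) and Wfdc2 (0.81) for Cst8, and Paqr7 (0.96), Spats2l (0.95) and Gstt1 (0.94) for Cst12. For Wfdc6a they were Wfdc6b, Tspan18 (0.97) and Gstm2 (0.93), for Wfdc6b the other copy, Tspan18 and Hs3st1, and for Wfdc10 Cd44 (0.94), Tmf1 (0.92) and Stom (0.91). Cyp2f2 (0.94), Svs6 (0.93) and Dync1i1 (0.93) were most like Svs5. For U90926 they were 4932438A13Rik (0.90), Bhlhe40 (0.89) and Mgp (0.89), for Lbx2 Emp3 (0.90), Dync1i1 (0.89) and Wfdc6b (0.89), and for Calb1 Arrdc4 (0.82), Hspb6 (0.77) and Plcb1 (0.77). The pools share stages and libraries, and these values are descriptions. For Cst8 and Calb1 the nearest gene had an r of 0.83 and 0.82, under that of the other 7 genes (0.90 and above).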

How the data were processed

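The deposited table holds raw UMI counts per gene and cell, made by the authors. The submitters' processing notes name mm10 as the build and list CASAVA 1.8, featureCounts, STAR, Subread and UMI-tools. The sources used here give neither their roles nor the annotation, strand setting or filters. The table read had 16344 complete gene rows and 1 incomplete row, which was not used. In the median cell these rows cover 51.2% of the deposited total (40.1% to 56.4% over cells), and genes on other rows were not analysed here. CPM were scaled by the deposited totals. Stage, gate and library came from the deposited cell table. Cells had a median of 169412 UMIs in the Negative gate and 248293.5 in the BVSC gate. The genes, lists and markers were chosen with earlier results of these data known.

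edgeR 4.0.16 in R 4.3.3 fitted pools of at least 5 cells with its quasi-likelihood test (TMM scaling, filterByExpr, Benjamini-Hochberg adjustment at 0.05), the gate comparison with stage as a covariate. The standard error is the absolute log2 change divided by the square root of F. DESeq2 1.42.0, upper-quartile scaling, no count filter, pools of at least 10 cells, cells against their gate left out, each library left out, and library as a block were tried. Cells against their gate have more summed germ identity than early gonadal somatic markers in the Negative gate, or the reverse in BVSC. The fits were tested on simulated data. Clusters of Negative cells came from scanpy 1.11.5 (Python 3.11.15): 8686 genes seen in at least 10 cells, 2000 variable genes, 30 principal components, 15 neighbours and Leiden resolution 1.0. Cells were picked by hand, and doublets were not called. A bound against 0 uses 3 counts over the group, and intervals and bounds cover counting error only. Named genes are the 9 themselves, up to 4 called genes per list and contrast by adjusted p, the 3 most similar genes of each (items withheld from this text are not reported here) and up to 2 called chromosome neighbours each with the largest fold. Positions are those of GENCODE M21 (GRCm38), matched by symbol for 16252 genes, and promoter windows those of RefSeq.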

Additional observations from a re-analysis of the deposited data

Results flagged for a closer look

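In the BVSC gate at E14.5, the pool of library 4 stood far above the other 3 pools for 4 of the genes, of which Wfdc6a and Wfdc6b are 1 measurement. It had 3.52 CPM of Wfdc6a (next pool 0.582 CPM), 3.52 CPM of Wfdc6b (0.545 CPM), 3.87 CPM of Wfdc10 (0.618 CPM) and 6.33 CPM of Calb1 (1.38 CPM). In all, 9 such groups were checked, 1 per gene and all of the same 4 pools. The cut-off flags about 1 group in 20 by chance where values are normal and groups independent. For low levels in shared pools that rate need not hold.

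The E11.5 BV pool, with 5 cells of library 2, entered no comparison. It had 11.2 CPM of Lbx2 (5 UMIs) and 20.1 CPM of Calb1 (9 UMIs), above the BVSC pools of that stage, and 11758 CPM of summed macrophage and immune markers.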

How the results depend on the processing

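Libraries of a stage are few and the BVSC levels low, which limits the calls, and the cells against their gate limit the E18.5 levels. Over all genes, DESeq2 called 2204 for BVSC E14.5 against E11.5 (1428 in the reported fit), 725 for Negative E18.5 against E11.5 (353), 37 for BV against BVSC (0), 5 for letter P against C (0) and 5 for P against D (1). With no filter on low counts there were 576 calls for Negative E18.5 against E11.5, 60 for BV against BVSC, 2 for D against C (1), 1 for P against C and 3 for P against D. Of the 9 genes, DESeq2 called 4 for BVSC E14.5 against E11.5 (1) and 2 for E18.5 against E14.5 (1), and no filter gave 2, 2 and, for P against D, 1 (0). Without cells against their gate 0 were called for BVSC E14.5 against E11.5, and, in an alternative added after seeing the data, 3 genes kept later Negative pools above the early ones (6) and 2 had all Negative above all BVSC pools (1). The share of Negative cells with a UMI, as the median over the 9 genes, was 36.0% thinned and 55.01% not thinned.

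With library as a replicate block, over 10 libraries with both gates, the gate comparison called 4451 of 9213 genes, 1844 higher and 2607 lower. For the letters, 2 blocked fits were added after seeing the data: the block gave 1 call for P against C, and over E14.5 to E16.5 it gave 0 for D against C. Leaving out each library gave 526 to 1804 calls for BVSC E14.5 against E11.5, 1762 to 2980 for E18.5 against E11.5, 1411 to 2076 for E18.5 against E14.5, 0 to 93 for BV against BVSC, 0 to 0 for D against C and P against C, 0 to 1 for P against D, 6182 to 6522 between gates and 177 to 410 for Negative E18.5 against E11.5. Of the 9 genes it gave 0 to 1, 1 to 6 and 1 to 3 calls in the BVSC contrasts in that order, and 6 to 7 with later pools above early ones. The cause of these moves was not tested. Among genes called for BVSC E18.5 against E11.5 the larger direction changed with 2 of the libraries left out: 947 were higher and 1125 lower without library 1, and 1203 and 1289 without library 6, against 1536 and 1316.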
